A study of Homo sapiens with 6 samples.

Results

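The genes described here encode the linker histones and the replication-dependent core histones. They were chosen by name and by total count: every row whose symbol is that of a numbered H1 gene or of a clustered H2A, H2B, H3 or H4 gene (H2AC, H2BC, H3C and H4C followed by a number), with at least 60 counts summed over the 6 libraries. Of 37871 genes in the count table, 67 carried such a symbol and 46 reached the minimum: 5 H1, 11 H2A, 13 H2B, 8 H3 and 9 H4 genes. Just inside the minimum stood H2BC13 and H2AC16 with 68 counts each and H4C16 with 99, and just outside it H1-3 with 58, H2BC10 with 53 and H2BC7 with 50. H4C6 had 0 counts in every library. The total sums both groups, and the genes were put together with earlier results of these data known, so how many of them moved is given here as a description only.

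The libraries came from T24, an established line of human bladder carcinoma cells that the labels call epithelial. One group of 3 libraries was labelled vehicle and the other group of 3 was labelled LPS + Nigericin. LPS, a bacterial cell wall lipid, is sensed by TLR4. Nigericin lets potassium out of cells, which sets off the NLRP3 inflammasome. No group given only 1 of the agents was among these samples. For dose and duration the labels refer to a manuscript that was not used here. No label says that replicates were separate cultures, so a p-value reflects the spread from library to library, which may be technical. All cells were of 1 line. The labels name more than 1 company for RNA extraction without saying which library went where, and whether polyadenylated RNA was selected is not given in the sources used here. Library totals ran from 66180407 to 89152224 counts. In the sums of marker genes, epithelial markers (mostly KRT7, KRT8, KRT18 and KRT19) reached 6535 to 9536 CPM in vehicle and 3510 to 4512 CPM in treated libraries, whereas CDH1 had a mean of 0 in vehicle and 0.024 CPM in treated libraries. Urothelial markers summed to 101 to 103 and 50.03 to 55.9 CPM (mostly PPARG, with UPK1B at 0). Leukocyte markers stayed at or under 4.73 CPM, with PTPRC at 3 counts in all and LYZ called higher at means of 0.067 and 0.673 CPM (log2 fold change 3.34, adjusted p = 0.0164), endothelial markers at or under 0.947 CPM, and fibroblast and mesenchymal markers, mostly VIM and with DCN at 0, between 74.2 and 103 CPM in all libraries. The mitochondrial ribosomal RNAs MT-RNR1 and MT-RNR2 were 3.10 and 3.37 log2 units higher in the treated libraries (edgeR adjusted p = 3.12e-05 and 1.33e-05), MT-RNR2 with means of 3830 and 39506 CPM. Their part in the results below was not tested.

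Core histones package DNA into nucleosomes, an octamer of H2A, H2B, H3 and H4, and H1 binds the linker DNA where it enters and leaves. Most core histone genes lie in clusters, lack introns, and are transcribed in S phase with NPAT and CASP8AP2 (FLASH) at the histone locus body. Their messenger RNAs end not in a poly(A) tail but in a conserved stem-loop, which SLBP binds and next to which the U7 small nuclear ribonucleoprotein, containing LSM10 and LSM11, directs cleavage. Some of these genes can also give polyadenylated transcripts that run past the stem-loop. H1-10 lies outside the clusters and is expressed independently of replication. Libraries made from polyadenylated RNA hold few stem-loop histone messages, so the values below are of whatever histone RNA these libraries captured.

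The stem-loop is an element that most of these genes share, and it forms the 3′ end of their RNA without a poly(A) tail. It was searched in the sense strand of GENCODE 29 transcripts as 16 bases in a row: the stem GGNNCT, the loop TTTN and the stem AGNNCC (N is any base). It was held by 28 of the 46 genes, against 80 of 58676 annotated genes (0.136%). Another 12 of the genes have models that stop at the stop codon, so no stem-loop could be found in them. All 7 H4 stem-loops had the GGCCC stem, while the 21 of H2A, H2B and H3 genes had GGCTC. Those of the genes on which the results turn are shown in DNA letters with 5 bases on either side, the 16-base motif in capitals. The first 6 lines belong to genes that were called higher, and H4C14 and H2BC5 are shown for contrast. The sequence of H3C15 is the same as that of H3C14.
H4C5: tcaaaGGCCCTTTTCAGGGCCgccca
H4C8: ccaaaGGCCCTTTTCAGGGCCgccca
H2BC21: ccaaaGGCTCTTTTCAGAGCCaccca
H2BC8: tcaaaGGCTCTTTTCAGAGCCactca
H3C14: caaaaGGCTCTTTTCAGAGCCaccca
H2AC6: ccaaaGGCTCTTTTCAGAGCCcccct
H4C14: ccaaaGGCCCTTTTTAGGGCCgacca
H2BC5: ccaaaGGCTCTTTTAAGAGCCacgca

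H4C5 and H4C8, the called genes with the largest rises, have the same 16 bases and differ in this window only in the flank before the stem. H4C11 and H4C16, which were not called (log2 fold change 0.21 and -0.06), have these 16 bases too. H4C14, H4C15 and H4C9 share another form of the motif, and H2BC4, H2BC5 and H3C8 yet another, and none of these 6 genes was called. H2BC21, H2BC8, H3C14, H3C15 and H2AC6, which were called higher, share 1 motif with 12 genes that were not.

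Upstream, the histone classes carry different promoter elements. In RefSeq promoters (GRCh38.p14, 250 bases before to 50 after the start), 44 of the 46 genes were matched, and letters were searched on both strands. TATAA was found in 39 of 44, against 21.1% of 27305 promoters of the same length. CCAAT was found in 36 of 44 (35.7% of all promoters): in all 11 H2A, all 13 H2B and all 8 H3 genes, but in 1 of 8 H4 genes. The octamer ATTTGCAT, which POU2F1 (OCT1) binds in H2B promoters, was found in 9 of 13 H2B and 7 of 11 H2A genes and in none of the H1, H3 and H4 genes (1.80% of all promoters). GGTCCG, the core of an element known from H4 promoters, was found in 8 of 8 H4 genes and 4 others (11.2%), and AAACACA, known from H1 promoters, in 3 of 4 H1 genes and 3 others (5.76%). The 150 bases before the start are shown for the 2 H4 genes called higher, for H2BC21, the called riser of the H2B class with the highest level, and for H2BC12, the H2B gene that fell. Capitals mark matches, on either strand, to the TATA box, the CCAAT box, the octamer and the H4 element just named.
H4C5, chr6:26204460-26204609, plus strand: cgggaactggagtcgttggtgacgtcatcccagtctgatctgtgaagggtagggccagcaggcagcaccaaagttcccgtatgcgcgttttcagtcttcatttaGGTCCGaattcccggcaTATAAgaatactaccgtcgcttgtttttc
H4C8, chr6:26285535-26285684, minus strand: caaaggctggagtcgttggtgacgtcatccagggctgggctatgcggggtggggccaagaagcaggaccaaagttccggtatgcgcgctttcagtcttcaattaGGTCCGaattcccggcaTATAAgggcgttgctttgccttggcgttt
H2BC21, chr1:149886683-149886832, minus strand: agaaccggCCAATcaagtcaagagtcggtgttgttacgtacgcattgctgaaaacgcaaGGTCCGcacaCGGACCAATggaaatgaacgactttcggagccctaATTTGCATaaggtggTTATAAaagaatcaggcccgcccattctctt
H2BC12, chr6:27146859-27147008, minus strand: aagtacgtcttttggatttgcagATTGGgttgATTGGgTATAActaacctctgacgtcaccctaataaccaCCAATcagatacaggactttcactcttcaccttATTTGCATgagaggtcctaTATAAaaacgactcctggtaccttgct
H4C5 and H4C8 were identical at 115 of these 150 positions (76.7%), with GGTCCG and TATAA at the same places. H2BC21 and H2BC12 both held CCAAT, the octamer and TATAA, and H2BC21 also held GGTCCG on both strands, once overlapping CCAAT. A match is a description of the letters and not evidence of a bound site.

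Of the 46 genes, 45 passed the filter on low counts (H2AC16 did not) and were tested with edgeR's quasi-likelihood test, with p-values adjusted over all 19170 tested genes by Benjamini-Hochberg at 0.05. The test called 8 higher in treated libraries, 3 lower and 34 neither. The background was 55.3% of all tested genes called, 28.9% higher and 26.4% lower. The count of higher and lower genes moved with the scaling: 8 and 5 with RLE factors (28.5% and 27.1% of all genes) and 7 and 6 with library totals (24.3% and 28.3%). DESeq2, which differs in its test as well, gave 9 and 6 (30.6% and 29.1%). Levels were low, with 26 of the 46 genes under a mean of 1 CPM (counts per 1e6, scaled with TMM factors). Among tested genes under 1 CPM, 4 of 25 histone genes were called, all higher, against a background of 28.9% (15.6% higher and 13.3% lower). At 1 CPM or more, 4 were called higher and 3 lower of 20, against 66.1% (34.3% and 31.8%). The groups did not overlap in CPM for 21 of 45 genes, against 67% of all tested genes. The median log2 fold change, treated over vehicle, was 0.19 for the 45 genes and 0.00 for all tested genes. These genes are short and rich in GC: their longest transcript had a median of 950 bases and 53.2% GC, against 3588 bases and 49.0% in 13979 tested protein-coding genes. With a per-library correction for GC content and length, 12 were called higher and 4 lower (23.6% and 26.6% of all genes), and the median was 0.38. Other alternatives called 10 higher and 5 lower (limma-voom, 30.8% and 27.4%), 4 and 6 (a filter of 1 CPM in 3 libraries, 34.7% and 33.7%) and 7 and 3 (the replicate number as a block, 28.8% and 25.5%).

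**Figure D1:**
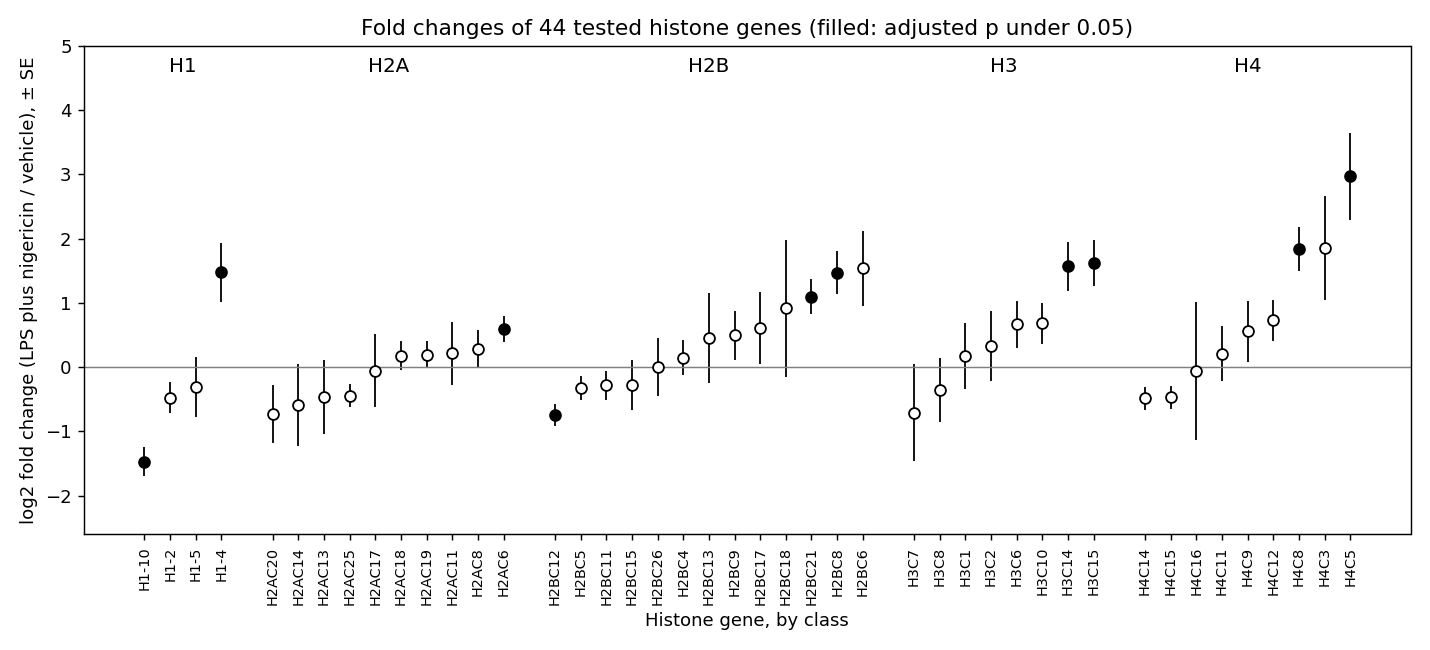
Log2 fold change (LPS plus nigericin over vehicle) of 44 of the 45 tested histone genes, ordered within its class, with bars of ± SE. Filled points passed the adjusted p of 0.05. Among the filled points H1-10 is the lowest at -1.47 and H4C5 the highest at 2.97.

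Among the linker histones, H1-10 fell and H1-4 rose, from very different levels. H1-10 (ENSG00000184897, RefSeq chr3:129314771-129316286, minus strand), also known as H1X, measured 235, 330 and 196 CPM in the vehicle libraries and 69.9, 108 and 96.8 CPM in the treated ones. All treated values lay under the lowest vehicle value, and the mean went from 254 ± 68.6 to 91.5 ± 19.5 CPM (SD, n = 3 each). The log2 fold change was -1.47 (SE 0.229, edgeR adjusted p = 0.00126), and -0.65 with the GC and length correction (adjusted p = 0.000554). The antisense gene H1-10-AS1 overlaps it and fell too, with means of 4.03 and 1.14 CPM (log2 fold change -1.83, adjusted p = 0.000646). H1-10 shares 10.7% of its 100-base stretches with H1-10-AS1, and without a stated strand setting reads from this shared part cannot be told apart. In total H1-10 had 86205 counts and H1-10-AS1 had 1290. H1-10 was called lower in all 15 alternative analyses. In these bulk samples, fewer cells of a kind (such as a cell cycle phase) and less RNA per cell cannot be told apart.

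Of the H1 genes of the chromosome 6 cluster, H1-4 (chr6:26156329-26157115, plus strand) rose from a low level. It measured 0.252, 0.236 and 0.143 CPM in vehicle and 0.695, 0.647 and 0.417 CPM in treated libraries, which rest on 13 to 54 counts each. The groups did not overlap (log2 fold change 1.47, SE 0.457, edgeR adjusted p = 0.0254). With the GC and length correction the change was 2.20. The call was lost without vehicle library 3, without treated library 1 and without treated library 2 (edgeR adjusted p = 0.064, 0.0863 and 0.0729). It was also lost with the replicate number as a block. H1-2, the best captured of the cluster's H1 genes, measured 24.3, 32.7 and 18.7 CPM in vehicle and 14, 21.3 and 19.2 CPM in treated libraries. Its groups overlapped (log2 fold change -0.48, SE 0.238, edgeR adjusted p = 0.123), but without vehicle library 3 it was called lower (-0.66, adjusted p = 0.0267). H1-5 stood at 0.361 ± 0.0861 and 0.289 ± 0.0695 CPM and was not called.

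**Figure D2:**
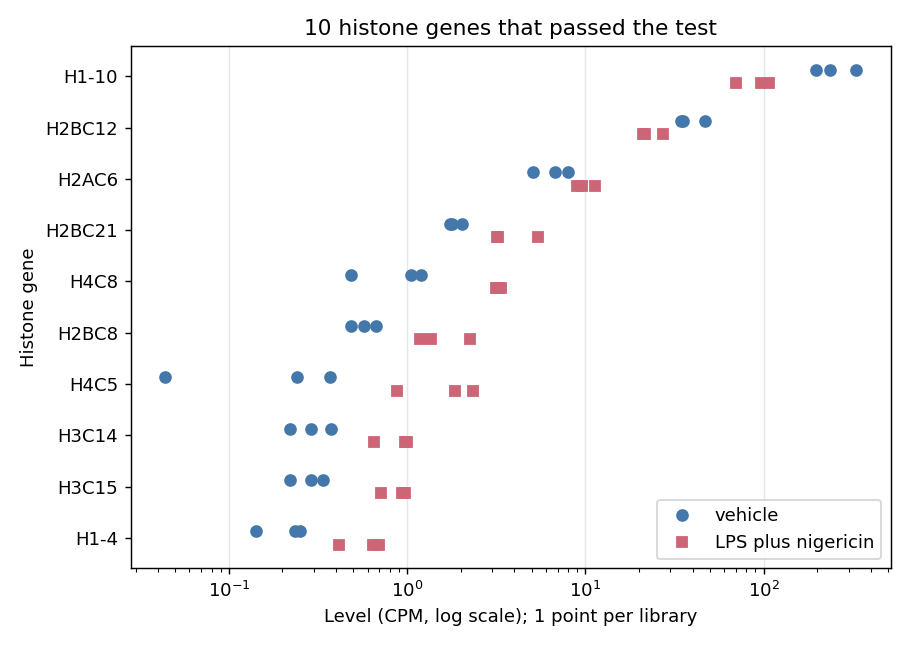
Level in each library of 10 histone genes that passed the test, in CPM on a log scale, with circles for vehicle and squares for LPS plus nigericin. The groups do not overlap for any of the 10 genes, and H1-10 and H2BC12, which fell, have higher levels than those raised.

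Among the H2A genes only H2AC6 was called in the edgeR test over all genes. H2AC6 (chr6:26124172-26124690, plus strand) measured 6.74, 5.09 and 7.95 CPM in vehicle and 9.01, 11.3 and 9.54 CPM in treated libraries. The groups did not overlap, and the log2 fold change was 0.59 (SE 0.204, edgeR adjusted p = 0.0377). This call held in 6 of 15 alternatives: leaving out any single library other than vehicle library 3 ended it (adjusted p from 0.0571 to 0.135), and with the GC and length correction the change was 0.16 (adjusted p = 0.376). H2AC18 and H2AC19 are near-identical copies on chromosome 1, sharing 100% and 96.8% of their 100-base stretches, and their counts were close in every library. H2AC18 measured 6.64, 8.24 and 5.96 CPM in vehicle and 6.06, 9.79 and 7.71 CPM in treated libraries (log2 fold change 0.18, adjusted p = 0.523). The 2 genes together are therefore 1 uncertain measurement, not called here, though with the GC and length correction both were higher (H2AC18 0.96, adjusted p = 0.00078; H2AC19 0.99, adjusted p = 0.000335). H2AC25 measured 6.20, 8.73 and 7.22 CPM in vehicle and 5.36, 5.57 and 5.36 CPM in treated libraries, which did not overlap (log2 fold change -0.44, adjusted p = 0.0672), and was called lower with library totals, DESeq2 and the filter of 1 CPM. H2AC8 measured 1.53, 1.39 and 1.24 CPM in vehicle and 1.34, 2.33 and 1.40 CPM in treated libraries and was not called. H2AC20 measured 1.10, 3.09 and 0.987 CPM in vehicle and 0.907, 1.10 and 1.10 CPM in treated libraries, so vehicle library 2 alone stood high (log2 fold change -0.73, adjusted p = 0.202). H2AC14, which shares sequence with H2AC13, had a change of -0.59 at 0.34 and 0.224 CPM and was not called.

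The H2B genes moved in both directions. H2BC12 (ENSG00000197903, chr6:27138293-27146858, minus strand) had the highest level of the class and fell: 35.4, 47.2 and 34.6 CPM in vehicle against 21.1, 27.3 and 21.7 CPM in treated libraries. The groups did not overlap, with means of 39.0 ± 7.04 and 23.4 ± 3.45 CPM, which is -0.74 in log2 fold change (SE 0.174, adjusted p = 0.00785 by edgeR). With the GC and length correction, in which H2BC12 counts as a 381-base coding sequence, the change was -0.11 (adjusted p = 0.44) and the call was lost. H2BC5, with the class's next highest CPM, measured 8.12, 8.18 and 6.83 CPM in vehicle and 6.47, 7.04 and 5.01 CPM in treated libraries, which overlapped (log2 fold change -0.32, adjusted p = 0.178).

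H2BC21 (chr1:149884459-149886682, minus strand), on chromosome 1, measured 1.77, 1.73 and 2.03 CPM in vehicle and 3.22, 5.45 and 3.18 CPM in treated libraries. All treated libraries were higher, treated library 2 most, and the log2 fold change was 1.10 (SE 0.266, edgeR adjusted p = 0.00898). H2BC8 (chr6:26216200-26216688, minus strand) measured 0.668, 0.485 and 0.57 CPM in vehicle and 1.18, 2.24 and 1.36 CPM in treated libraries, again without overlap (log2 fold change 1.47, SE 0.334, adjusted p = 0.00687). Both were called in all 15 alternatives, the GC and length correction included (1.03 and 1.52). H2BC6 had a change of a like size, 1.54, but more spread between vehicle libraries: 0.274, 0.0787 and 0.472 CPM in vehicle and 0.695, 1.02 and 0.702 CPM in treated libraries (adjusted p = 0.0551). H2BC6 was called with DESeq2 (adjusted p = 0.0309), limma-voom (0.0294), the GC and length correction (0.0498) and without vehicle library 3 (0.0162). H2BC4 differed little but evenly, at 0.745, 0.708 and 0.768 CPM in vehicle and 0.801, 0.803 and 0.857 CPM in treated libraries, and was not called (log2 fold change 0.15, adjusted p = 0.67).

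The called H3 genes are a single measurement under 2 names. H3C14 (chr1:149840687-149841208, minus strand) and H3C15 (chr1:149852608-149853125, plus strand) are identical in sequence, each sharing 100% of its 100-base stretches with the other, and their counts differed by at most 5 in any library. H3C14 measured 0.372, 0.288 and 0.219 CPM in vehicle and 0.997, 0.971 and 0.655 CPM in treated libraries, without overlap. The log2 fold change was 1.57 for H3C14 (SE 0.382, edgeR adjusted p = 0.00922) and 1.62 for H3C15 (SE 0.361, adjusted p = 0.00624), and both were called in all 14 alternatives that tested them. With the GC and length correction the changes were 2.36 and 2.41. Their annotated transcripts overlap those of H4C14 and H4C15, which had changes of the opposite sign. H3C6 measured 0.876, 0.813 and 0.801 CPM in vehicle and 0.892, 2.06 and 0.988 CPM in treated libraries, with treated library 2 apart (log2 fold change 0.66, adjusted p = 0.16). H3C10 measured 0.876, 0.97 and 0.538 CPM in vehicle and 0.997, 1.33 and 1.49 CPM in treated libraries and was not called (0.68, adjusted p = 0.108). H3C7 and H3C8 had changes of -0.71 and -0.35 with overlapping groups and were not called.

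Among the H4 genes, H4C5 and H4C8 were called higher and the best captured pair, H4C14 and H4C15, was not called. H4C5 (ENSG00000276966, chr6:26204610-26205021, plus strand) measured 0.241, 0.367 and 0.0439 CPM in vehicle and 0.876, 2.34 and 1.86 CPM in treated libraries. These rest on 22, 28 and 4 counts against 58, 195 and 156. Every treated library was higher than every vehicle library, a 7.83-fold difference (log2 fold change 2.97, SE 0.677, edgeR adjusted p = 0.00691). H4C8 (ENSG00000158406, chr6:26285126-26285534, minus strand) measured 1.05, 1.19 and 0.483 CPM in vehicle and 3.14, 3.25 and 3.36 CPM in treated libraries, where the treated values were tightly grouped (log2 fold change 1.84, SE 0.34, adjusted p = 0.00276). H4C8 was called in all 15 alternatives and H4C5 in all 14 that tested it.

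H4C14 and H4C15, near-identical copies on chromosome 1 whose counts cannot be separated, measured lower in all treated libraries without passing the test. H4C14 stood at 6.57, 7.79 and 6.11 CPM in vehicle and 4.25, 5.07 and 5.30 CPM in treated libraries (log2 fold change -0.49, SE 0.182, edgeR adjusted p = 0.051). H4C15 stood at 7.14, 7.75 and 6.10 CPM in vehicle and 4.44, 5.36 and 5.37 CPM in treated libraries (-0.47, SE 0.178, adjusted p = 0.0538). H4C14 was called lower in 7 and H4C15 in 8 of 15 alternatives, among them DESeq2 (adjusted p = 0.0191 and 0.02). H4C3 measured 0.208, 0.0525 and 0.0219 CPM in vehicle and 0.348, 0.324 and 0.369 CPM in treated libraries and was not called (log2 fold change 1.85, SE 0.804, adjusted p = 0.082), but it was called without vehicle library 1 (3.19, adjusted p = 0.0189) and with limma-voom (2.32, adjusted p = 0.0319).

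The sums of the H2A, H2B and H4 classes are set by their few best captured genes, while that of H3 is more evenly spread. The 13 H2B genes summed to 55.2 ± 7.72 CPM in vehicle and 41.8 ± 6.45 CPM in treated libraries (SD, n = 3 each), with all treated libraries under all vehicle ones. H2BC12 alone gave 39.0 and 23.4 CPM of these means, while 9 of the 13 genes had a positive log2 fold change. H3 summed to 3.54 ± 0.870 and 5.53 ± 1.01 CPM, with all treated libraries higher. Of these means, H3C14 gave 0.293 and 0.874 CPM and H3C15 gave 0.282 and 0.872 CPM. These 2 genes are identical in sequence and count as 1 measurement. H2A (32.4 ± 3.59 and 35.2 ± 5.16 CPM) and H4 (16.3 ± 2.39 and 17.0 ± 2.18 CPM) overlapped between groups. Per kilobase of the longest GENCODE 29 transcript, H1-10 stood at 168 CPM per kb in vehicle and 60.7 in treated libraries, H2BC12 at 102 and 61.3, and H1-2 at 39.3 and 28.3. The models of H2BC12 and H1-2 hold only coding sequence, so their level per kilobase depends on that annotation.

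**Figure D3:**
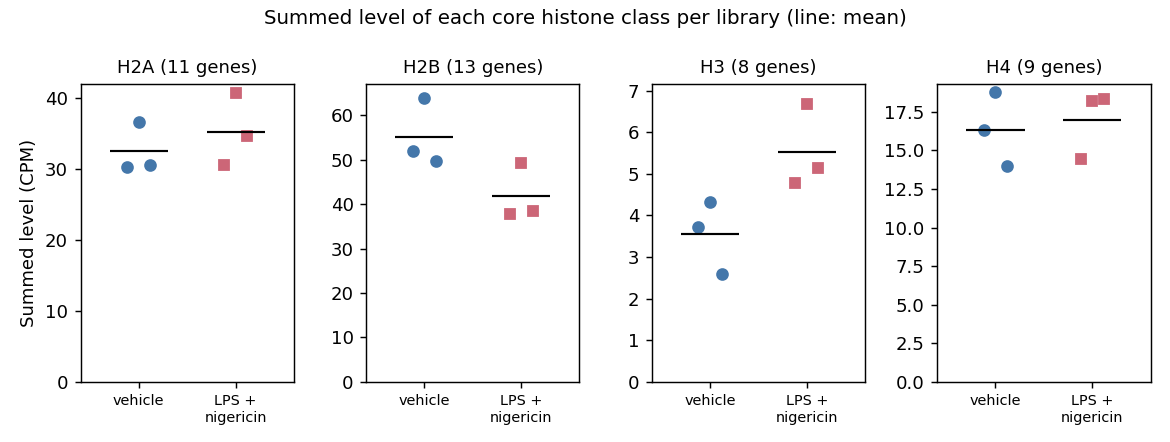
Summed level of the H2A, H2B, H3 and H4 genes in each library, in CPM, with vehicle on the left and LPS plus nigericin on the right of each panel and a line at the mean. Each panel has its own scale from 0. H2B has a mean of 55.2 and 41.8 CPM and H3 of 3.54 and 5.53 CPM without overlap, and H2A and H4 overlap. In the H2B panel, H2BC12 alone has a mean of 39.0 and 23.4 CPM. In the H3 panel, H3C14 has a mean of 0.293 and 0.874 CPM, and H3C15, identical in sequence, of 0.282 and 0.872 CPM.

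Of the 8 genes called higher, 7 have long annotated transcripts. GENCODE 29 carries the transcript of 15 of the 28 stem-loop genes more than 1000 bases past the stem-loop. Of these 15 genes, 12 have a poly(A) signal (AATAAA or ATTAAA) in the last 50 bases of an annotated transcript. The signal is not particular to the long models. Among the 13 stem-loop genes annotated less far, it is found in H2AC18, H2AC19, H2AC25, H2BC4, H2BC5, H2BC6, H2BC15, H3C10 and H4C11. Of the 15 long-model genes, 7 were called higher (H2AC6, H2BC8, H2BC21, H3C14, H3C15, H4C5 and H4C8), 0 lower and 8 neither. The summed level of the 15 was 27.2 ± 1.64 CPM in vehicle and 35.2 ± 5.05 CPM in treated libraries. Of the 30 other tested genes, 1 was called higher (H1-4) and 3 lower (H1-10 and H2BC12 among them). These others are not all short models. Beside the 13 stem-loop genes annotated less far, they hold genes in whose models no stem-loop was found. H1-4, H1-10, H2BC12 and H3C6, with a model of 2679 bases, are among the latter. For models of coding sequence only, such as that of H2BC12, the distance past a stem-loop is unknown. The background in the whole table was 28.9% higher and 26.4% lower. With the GC and length correction, 6 of the 15 long-model genes and 6 of the 30 others were called higher, and 2 in each set lower. Of all genes, 23.6% were higher and 26.6% lower with the correction. The corrected medians were 0.34 and 0.41, where they had been 0.59 and 0.16, so their order turned. The split was made after the values were seen and has no test, and H3C14 and H3C15 count as 1 measurement. Not every long model rose: H4C14 and H4C15 are annotated 1167 and 1314 bases past the stem-loop, and neither was called. Where in the transcript the reads fell cannot be read from counts per gene.

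**Figure D4:**
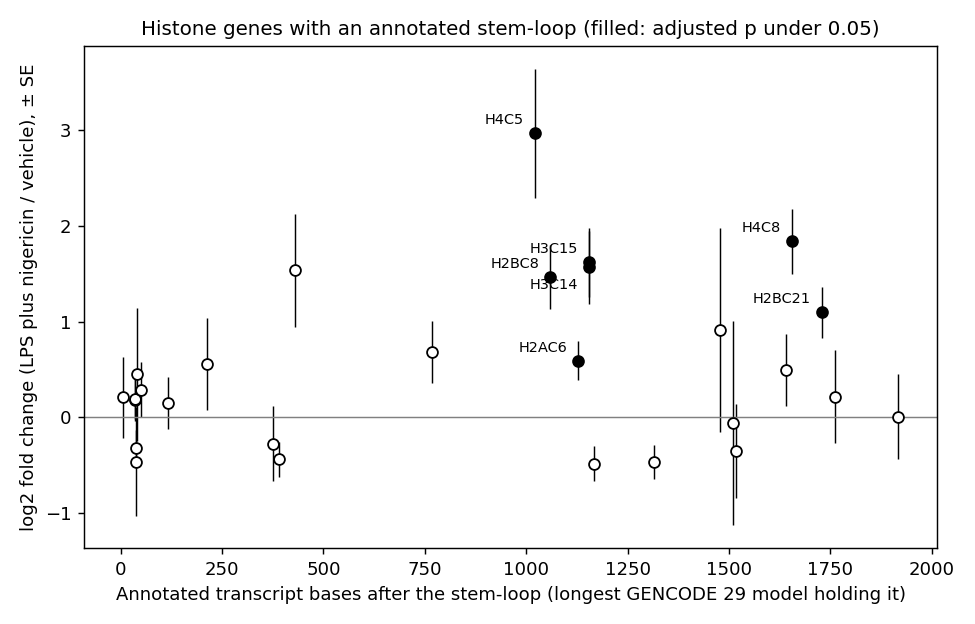
Log2 fold change (LPS plus nigericin over vehicle, bars ± SE) of the 28 histone genes with a stem-loop, against the annotated transcript bases after it in the longest GENCODE 29 model that holds it. Filled points passed the adjusted p of 0.05, and all 7 of them lie past 1000 bases. With the GC and length correction H2AC6 was not called, and H2AC18, H2AC19, H2AC8 and H2BC6, all under 1000 bases, were called higher.

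Of the 46 genes, 32 lie on chromosome 6, 11 on chromosome 1 and 3 elsewhere, among them H1-10 on chromosome 3 and H4C16 on chromosome 12. On chromosome 6, 5 of 31 tested genes were called higher and 1 lower (H2BC12), and on chromosome 1, 3 of 11 higher and 0 lower, against 28.9% higher and 26.4% lower of all tested genes. There were 8 pairs of genes that start within 1000 bases of each other and run in opposite directions. In the pair 236 bases apart, H2BC21 rose by 1.10 while H2AC20 had a log2 fold change of -0.73 and was not called. In the pair 233 bases apart, H2BC8 rose by 1.47 and H2AC8 had 0.29, and in the pair 246 bases apart, H2AC6 rose by 0.59 and H2BC4 had 0.15. In none of the 8 pairs were both genes called, and the difference between partners was not tested.

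The genes that make, process and degrade histone messenger RNA changed in both directions. Of 22 genes of histone transcription and 3′ end processing, 7 were called higher, 7 lower and 8 neither (63.6% called), with a median log2 fold change of 0.15. Of all tested genes, 55.3% were called, 28.9% higher and 26.4% lower. SLBP, the stem-loop binding protein, measured 28.8, 17.7 and 37.6 CPM in vehicle and 40.4, 37.1 and 40.6 CPM in treated libraries, which overlapped (log2 fold change 0.49, edgeR adjusted p = 0.128). Without vehicle library 3 it was called higher (0.75, adjusted p = 0.0142). LSM10 and LSM11, the Sm-like proteins particular to the U7 particle, fell. LSM10 went from 44.8 ± 2.36 to 16.1 ± 2.01 CPM (-1.48, adjusted p = 0.000155) and LSM11 from 4.95 ± 0.952 to 2.49 ± 0.194 CPM (-0.99, adjusted p = 0.00505, and -1.72 with the GC and length correction). NELFE, a subunit of the negative elongation factor, fell by 1.58 on the log2 scale. The coactivator NPAT rose from 8.68 ± 3.28 to 20.5 ± 2.69 CPM (1.24, adjusted p = 0.00537) and CASP8AP2 from 2.45 ± 1.29 to 6.12 ± 0.941 CPM (1.32, adjusted p = 0.0167). With the GC and length correction these 2 were not called (0.26 and 0.34, adjusted p = 0.0843 and 0.212). POU2F1, which binds the octamer shown above, rose from 9.67 ± 1.17 to 30.2 ± 2.53 CPM (1.64, adjusted p = 0.000139), or by 0.57 with the correction.

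Of 18 genes of histone messenger RNA translation and decay, 6 were called higher, 5 lower and 7 neither (61.1% called, median 0.16), and the median was -0.15 with the GC and length correction. XRN1, the cytoplasmic 5′ to 3′ exonuclease, rose from 4.69 ± 1.24 to 30.5 ± 4.99 CPM (log2 fold change 2.70, edgeR adjusted p = 0.000125), or by 1.52 with the correction. ERI1, the exonuclease that trims the histone stem-loop end, rose by 0.65 (adjusted p = 0.0179), but the correction turned its change to -0.21. CCNF, cyclin F, a known regulator of SLBP turnover, fell by 1.16 (adjusted p = 0.000154). Of 26 histone chaperones and importers, 10 were higher and 11 lower (80.8% called, against 55.3% of all tested genes), with a median of 0.24, or -0.16 with the correction. NPM1, a nucleolar chaperone, rose from 692 to 1473 CPM, while ASF1B, which hands H3 and H4 to the replication fork, fell from 149 to 70.5 CPM (log2 fold change -1.08, adjusted p = 0.000238).

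Of the 10 genes listed as replication-independent core variants, 2 were called higher and 5 lower (28.9% and 26.4% of all tested genes were). Their median log2 fold change was -0.56. The form of their messages was not measured. H2AX, the variant phosphorylated at DNA breaks, measured 454, 534 and 344 CPM in vehicle and 86.8, 113 and 101 CPM in treated libraries, the largest fall among the variants (-2.15, edgeR adjusted p = 0.000119, and -1.23 with the GC and length correction). H3-3B, which encodes the variant H3.3, fell from 320 ± 41.2 to 131 ± 6.28 CPM (-1.28, adjusted p = 0.000184), while its partner H3-3A had a change of 0.56 and was not called. H2AZ2 rose by 0.54 (adjusted p = 0.0118), and with the correction its change was -0.04. Of 26 genes of S phase, 3 were called higher and 16 lower (median -0.63), against the same shares of all tested genes. Among them the helicase subunit MCM5 dropped from 334 to 110 CPM (-1.60, adjusted p = 0.000214), and POLA1, of DNA polymerase alpha, rose from 16.2 to 33.7 CPM (1.06, adjusted p = 0.000972, and 0.31 with the correction). Of 10 genes of G2 and mitosis, 3 were higher (CCNB1, BUB1 and CENPF), 2 lower (PLK1 and AURKB) and 5 not called. With the correction CENPF was called lower (-0.47, adjusted p = 0.00777), CCNB1 had 0.03 and was not called, and BUB1 rose by 0.65 where it had risen by 1.24.

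Other RNAs listed as having no poly(A) tail, MALAT1 among them, were measured in these libraries too. How far they stand for the capture of stem-loop histone messages was not tested. Of 43 such names, 38 were in the table and 12 passed the count filter, where 4 were called higher (SNORD3A, SNORD3B-1, SCARNA9 and MALAT1), 1 lower (SNORA73B) and 7 neither (41.7% called, against 55.3% of all tested genes). Their summed level was 243 to 675 CPM in vehicle and 263 to 618 CPM in treated libraries, so the groups overlapped. A large and uneven part of it was RN7SL1. It measured 161, 481 and 150 CPM in vehicle and 395, 81.3 and 185 CPM in treated libraries. Vehicle library 2 and treated library 1 stood high, while in treated library 2 other RNAs made up most of the sum. The U3 RNA SNORD3A rose from 0.909 ± 0.122 to 13.8 ± 1.96 CPM (log2 fold change 3.92, edgeR adjusted p = 2.51e-05), while RN7SK, not called, measured 17.1, 66.3 and 16.5 CPM in vehicle and 34.9, 9.26 and 20.02 CPM in treated libraries. The U7 RNA itself, RNU7-1, was at 0.0117 and 0.013 CPM and was not tested. The part of RNA capture in the histone results was not tested.

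**Figure D5:**
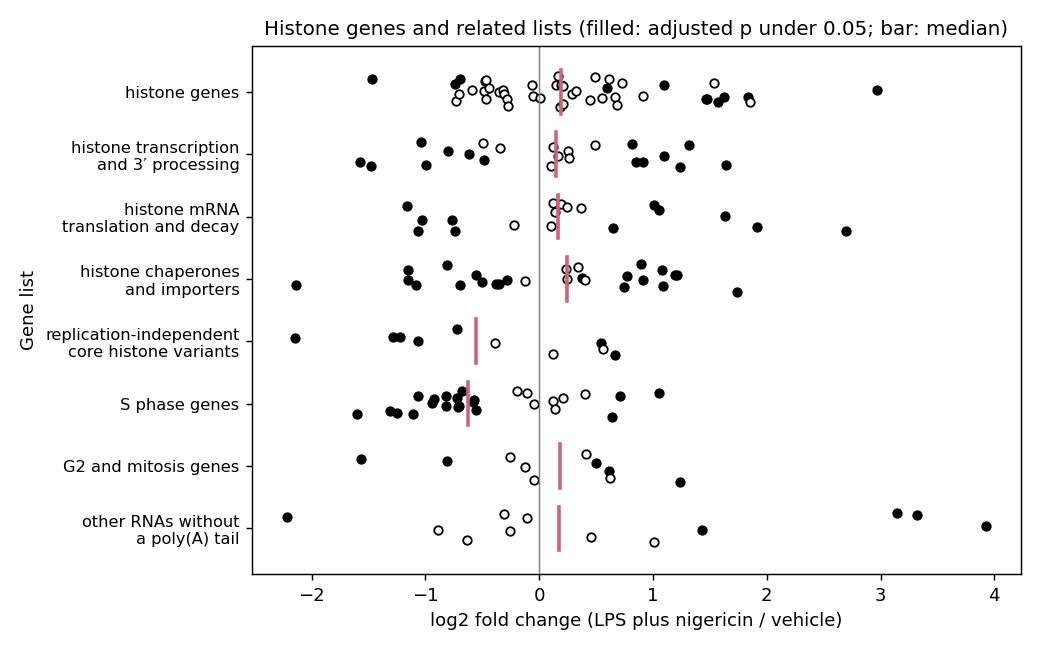
Log2 fold change (LPS plus nigericin over vehicle) of each tested gene of the histone set and of 7 related lists, with filled points past the adjusted p of 0.05 and a bar at each list's median. The histone genes have a median of 0.19 and most of their points are open, and the S phase list has a median of -0.63.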

How the data were processed

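RNA-seq libraries of T24 cells (3 vehicle, 3 LPS plus nigericin) were analysed from a deposited table that holds, per the file headers, the raw count of each Ensembl gene in each library. The build was hg38 per the submitters' processing notes. Which aligner, counter, annotation and strand setting were used is not given in the sources used here. Columns were assigned to samples by library name, with 0 left over. Of 37871 identifiers, 37840 matched a symbol.

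Genes passing filterByExpr (19170) were fitted with edgeR 4.0.16 (robust quasi-likelihood, TMM factors, group as the only term, R 4.3.3), tested for treated against vehicle and adjusted by Benjamini-Hochberg at 0.05 over all of them. The SE was taken as the size of the log2 fold change over the root of F. The common biological coefficient of variation was 0.268. Alternatives were RLE factors, library totals, DESeq2 1.42.0, limma-voom (limma 3.58.1), no count filter, a filter of 1 CPM in 3 libraries, a block for the replicate number, loess curves (span 0.3) fitted in each library to GC content and then to the length of the longest GENCODE 29 transcript (18623 genes), a minimum of 600 counts for the histone genes, and leaving out each library. The fitting code was tested on simulated data. With 3 libraries against 3, the counting error of genes under 1 CPM adds to the spread.

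Coordinates and promoters came from RefSeq (GRCh38.p14). Transcripts came from GENCODE 29, where 3 histone genes matched by an earlier identifier. Motif search and figures used Python 3.11.15. The histone genes and all lists were chosen with earlier results of these data known. A single gene of the set is counted in the totals and not reported by itself. Named with values were H1-10, in each class the 3 genes with the highest mean CPM, the 2 largest rises and the 2 largest falls, 6 fixed processing genes, the gene with the smallest p in each direction in each list, and the genes nearest the count minimum. Others were named after their values were seen.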

Additional observations from a re-analysis of the deposited data

How the results depend on the processing

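Of the 11 called histone genes, H1-10, H2BC8, H2BC21 and H4C8 were called the same way in all 15 alternatives. The 8 higher calls became 4 with a filter of 1 CPM in 3 libraries, which leaves H1-4, H3C14, H3C15 and H4C5 untested, and 3 when histone genes under 600 counts were left out. The 3 lower calls became 5 with RLE factors or limma-voom, and 6 with library totals, DESeq2 or the filter of 1 CPM, where H4C14 and H4C15 were gained each time and, in the settings with 6, H2AC25 too. Leaving out 1 library gave 6 to 8 higher and 3 to 6 lower calls (6 without vehicle library 3), against 21.8 to 30.3% and 20.1 to 26.4% of all tested genes. The GC and length correction kept 9 of the 11 calls, lost H2AC6 and H2BC12 and gained H2AC18, H2AC19, H2AC8, H2BC6, H4C12, H4C14 and H4C15; the cause was not tested. It also turned ERI1 (-0.21), H2AZ2 (-0.036) and CENPF (-0.47), with the block added -0.21, -0.039 and -0.46. With the correction, 7 of the 18 translation and decay genes were called in place of 11, with or without the block. Of the 10 genes of G2 and mitosis, 8 were called in place of 5. Of all genes, 23.6% were higher and 26.6% lower with the correction alone, against 28.9% and 26.4% without it. With the block and the correction together 4 of the 10 core variants were called in place of 7. When 1 library was left out 4 to 8 were called, 4 without vehicle library 1, beside the leave-one-out shares of all genes given above. The RNAs without a poly(A) tail had 3 calls in place of 5 under the filter of 1 CPM, where 34.7% of all genes were higher and 33.7% lower. Correlations of deviations between same-numbered vehicle and treated libraries were -0.0231, 0.0956 and -0.0236, and between the other pairs -0.101 to 0.122. With 3 libraries per group these values cannot settle whether same-numbered libraries were paired. With the replicate number as a block 7 histone genes were called higher and 3 lower, with H1-4 lost, and SLBP was called higher (adjusted p = 0.0409, edgeR). Without a count filter the median of all genes was 0.10. At these depths, differences in genes of few counts were often not detectable.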
